A study of Mus musculus with 6 samples.

Results

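The genes described here are 36 general splicing factors, namely SR proteins, hnRNPs, core splice-site factors and the kinases and scaffold proteins that act with them. They were taken by symbol from a list and not by a cutoff on a measured value. The list was chosen with earlier results of these data known. All 36 were found among the 55401 gene identifiers of the count table. All 36 passed the filter on low counts and were among the 17222 genes tested. RNA-seq was performed on tibialis anterior (TA) muscle of C57BL/6 mice with an inducible, skeletal muscle-specific Bmal1 knockout (HSA-MCM-Bmal1-/-, from iMSBmal1 fl/fl animals). The TA received AAV-GFP in 3 samples and AAV-RBM20 in the other 3. Both groups carried the knockout, in which muscle fibres lose BMAL1, a transcription factor at the centre of the circadian clock, so neither group shows the effect of Bmal1 itself. Mice were 12 to 16 weeks old when they received 2 mg of tamoxifen daily for 5 days, the AAV was given 4 weeks later, and muscle was taken after another 4 weeks. The study's methods state male mice and a CMV promoter driving mouse Rbm20 cDNA with an HA tag. The RBM20 vector was given at the higher dose, so vector dose and transgene cannot be told apart. The comparison asked whether raising RBM20, a muscle splicing regulator, was accompanied by changes in the mRNA of the general splicing machinery.

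Splicing factors decide which exons a transcript keeps. SR proteins carry RNA-recognition motifs and a tail rich in arginine and serine, bind exonic enhancers and recruit the spliceosome, while hnRNPs often bind silencers and oppose exon inclusion. U2AF, SF1 and SF3B1 recognise the branch point and the 3′ splice site, CLK kinases phosphorylate the arginine-serine tails, and SON and SRRM2 form the core of nuclear speckles where these factors are stored. RBM20 itself contains an arginine-serine-rich stretch and represses exons of titin.

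SR proteins are known for their arginine-serine tail, so the longest uninterrupted run of arginine and serine codons was read from the longest annotated coding sequence of each gene (GENCODE M21, GRCm38). The runs of 3 SR proteins, a Tra2 protein and the speckle scaffold Son are shown 5′ to 3′ on the coding strand, with arginine codons in capitals and serine codons in lower case.
Srsf1 (chr11:88049469-88049516, plus strand): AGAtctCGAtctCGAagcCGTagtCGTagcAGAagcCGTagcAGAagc
Srsf2 (chr11:116852265-116852327, minus strand): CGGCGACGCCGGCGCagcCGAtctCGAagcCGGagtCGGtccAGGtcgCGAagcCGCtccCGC
Srsf6 (chr2:162933852-162934291, plus strand, across an exon junction): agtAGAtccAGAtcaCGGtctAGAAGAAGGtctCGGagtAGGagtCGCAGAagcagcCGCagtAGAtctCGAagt
Tra2b (chr16:22254543-22254988, minus strand, across an exon junction): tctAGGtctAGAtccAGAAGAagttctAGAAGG
Son (chr16:91660025-91660075, plus strand): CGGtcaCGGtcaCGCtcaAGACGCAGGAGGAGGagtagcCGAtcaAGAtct

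In Srsf1 the run alternates strictly between arginine and serine over 16 codons, 204 to 219. The longest SR run, in Srsf6, has 25 codons, 13 of them arginine. Arginine and serine together made up 22.1% (Srsf9) to 45.7% (Srsf2) of the codons of the 10 SR genes and 38.3% and 40.3% of those of the 2 Tra2 genes. In the 11 hnRNP genes the share was 10.1% to 18.2%, and no run was longer than 6 codons. The runs were not longer in every SR gene, since Srsf9 had 5 codons and Hnrnpa1 and Hnrnpa3 had 6 each. The Hnrnpa1 run was all serine and the Hnrnpa3 run all arginine, so neither mixes the 2 residues. The Srsf9 run held 2 arginine and 3 serine codons. Rbm20 had 14.7% and a longest run of 4 codons.

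The overexpressed gene was examined first. Rbm20 was measured at 170, 165 and 164 CPM (read counts scaled by the TMM-normalised library size) in AAV-GFP and at 499, 545 and 406 CPM in AAV-RBM20. Every AAV-RBM20 library was thus above every AAV-GFP library, 2.91-fold on the means. The log2 fold change, by the quasi-likelihood test of edgeR, came to 1.54 ± 0.15 (SE) at an adjusted p of 0.121. With the replicate number as a block edgeR gave 1.53 ± 0.11 (SE) at an adjusted p of 0.0107, and DESeq2 (adjusted p 4.32e-15) and edgeR without a filter on low counts (adjusted p 0.00202) called it without the block. With both libraries numbered 3 left out, edgeR gave 1.65 ± 0.070 (SE) at an adjusted p of 2.28e-06. The call for Rbm20 thus depended on the block, the tool, the filter and the libraries kept. A gene-level count does not separate vector transcripts from endogenous ones.

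Total counts were 41400132 to 54226618 per library, and the 36 genes together took 0.288% to 0.371% of them. The library numbered 3 stood apart in each group. Ttn took 4.48% and 9.05% of the counts in those libraries and 16.9% to 17.8% in the other 4, and mitochondrially encoded genes took 12.5% and 11.4% against 6.41% to 7.66%. All 10 skeletal muscle markers were expressed in every library, and their summed level was 102693 to 111928 CPM in AAV-GFP and 66609 to 98169 CPM in AAV-RBM20, so the groups did not overlap. The summed level of 12 macrophage markers was 29.1 to 112 CPM in AAV-GFP and 72.6 to 195 CPM in AAV-RBM20, and the highest value of each group was in the library numbered 3. For 6 fibro-adipogenic markers it was 493 to 1049 and 853 to 1088 CPM, and for 6 endothelial markers 158 to 380 and 247 to 375 CPM. Sums for lymphocyte (8 genes), adipocyte (4) and erythroid (5) markers stayed at or below 27.3 CPM in every library, and those for satellite and regenerating muscle (6) were 44.1 to 61.3 CPM. No marker was at 0 in all 6 libraries. Only 1 lymphocyte, 3 adipocyte and 3 erythroid markers entered the edgeR test, with all markers of the other lists. None of those tested passed, but 0 of all 17222 genes did, so this does not show that cell content was alike. The part of the markers in the values of the splicing factors was not tested. In whole muscle, fewer cells of a type and less RNA per cell cannot be told apart.

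Levels of the splicing factors lay in much the same order in both groups. Per length of merged exons (RPKM, CPM per kilobase), Qk was highest at a mean of 38.3 over the 6 libraries and Rbm4 lowest at 1.59, with a median of 7.64. Qk encodes quaking, an RNA-binding protein that regulates muscle exons, and its level was 36.7, 34.8 and 39.6 RPKM in AAV-GFP and 38.2, 34.6 and 45.8 RPKM in AAV-RBM20. Next in order were Hnrnpa2b1 at 30.4, Srrm2 at 30.1 and Son at 24.4, and the first of these stayed between 26.6 and 32.6 while Srrm2 ranged from 15.1 to 38.3. The ranges of Qk and Srrm2 overlapped, whereas the lowest Qk library was above the highest Hnrnpa2b1 library. Srsf5 at 22.5 was the highest SR gene, ahead of Srsf2 at 19.2. Rbm20 stood at a mean of 24.5 RPKM in AAV-GFP, where 3 of the 36 genes were above it, and at 71.2 RPKM in AAV-RBM20, where 0 were.

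**Figure D1:**
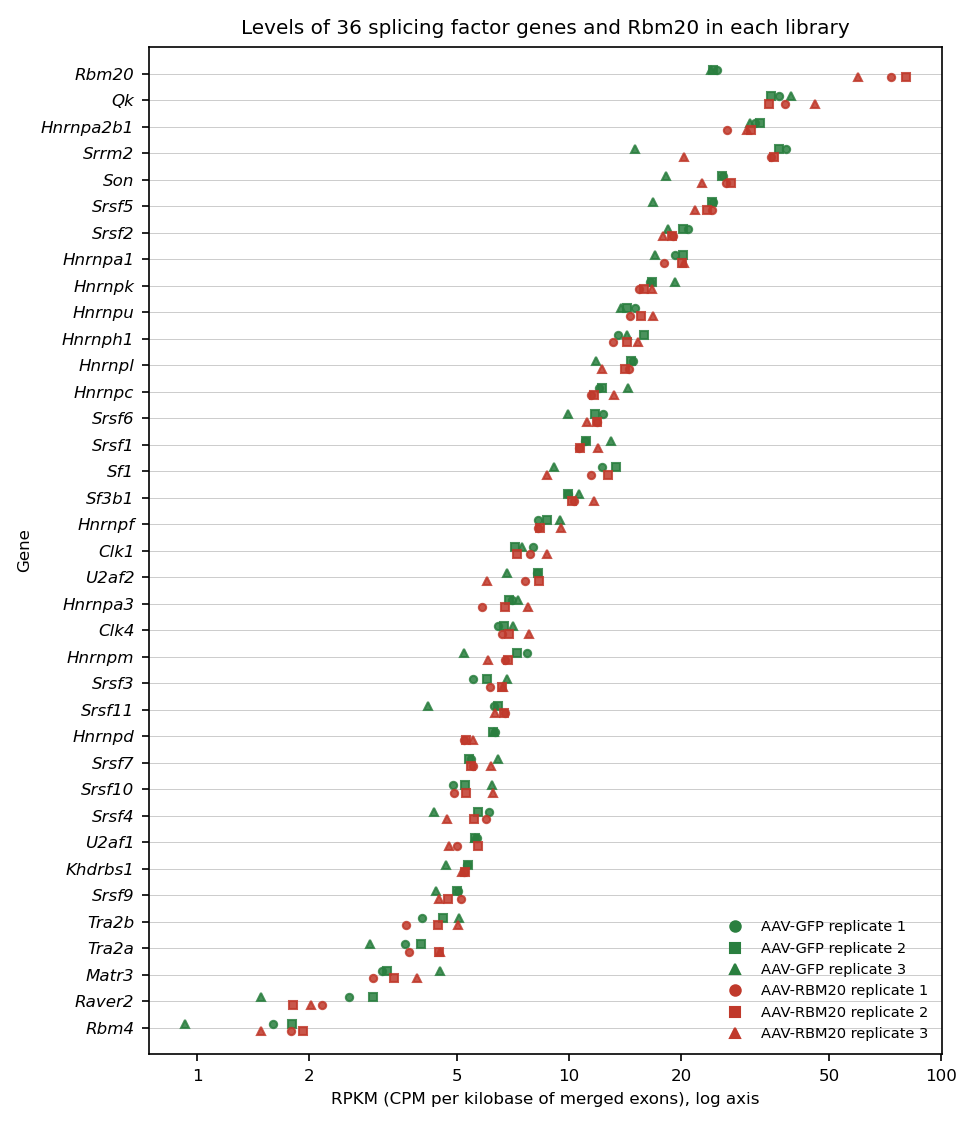
RPKM (log axis) of the 36 splicing factor genes and Rbm20 in each of the 6 libraries, ordered by mean level; green points are AAV-GFP, red points AAV-RBM20 and the symbol gives the replicate number. Rbm20 separates the groups (24.5 against 71.2 RPKM on average), whereas for the splicing factors the colours lie together, apart from the shift of Hnrnpd, and the triangles of replicate 3 lie apart for Srrm2 and Rbm4 in both groups.

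No general splicing factor passed the test between AAV-RBM20 and AAV-GFP. At an edgeR adjusted p of 0.05, 0 of the 36 were called, where 0% of all genes tested were, and at an unadjusted p of 0.05 0 of the 36 were called against 7.9% of all genes. DESeq2 and limma-voom also called 0 of the 36, adjusted or unadjusted. Log2 fold changes ran from -0.23 (Hnrnpd) to 0.27 (Rbm4), that is from 1.18-fold lower to 1.20-fold higher, with 19 below and 17 above 0. That split moved with the scaling, with 22 below 0 for DESeq2 size factors, 13 for upper quartile factors and 32 with trends of length and GC removed. Against the median of all genes in the same fit, 21 of the 36 were lower under each of these scalings. Over all alternatives this ran from 15 to 25 of the 36 genes. Their median was -0.0095, beside 0.0090 over all genes, and 57.0% of all genes tested lay within the range of the 36. The smallest edgeR adjusted p was 0.641.

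The estimates were narrow. The median standard error of the log2 fold change was 0.13 for the 36 genes and 0.23 for all genes. The 95% interval stayed within 1.5-fold either way for 31 of the 36 (86.1%), against 32.2% of all genes. The intervals of Srsf11, Tra2a, Rbm4, Raver2 and Srrm2 reached beyond 1.5-fold.

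**Figure D2:**
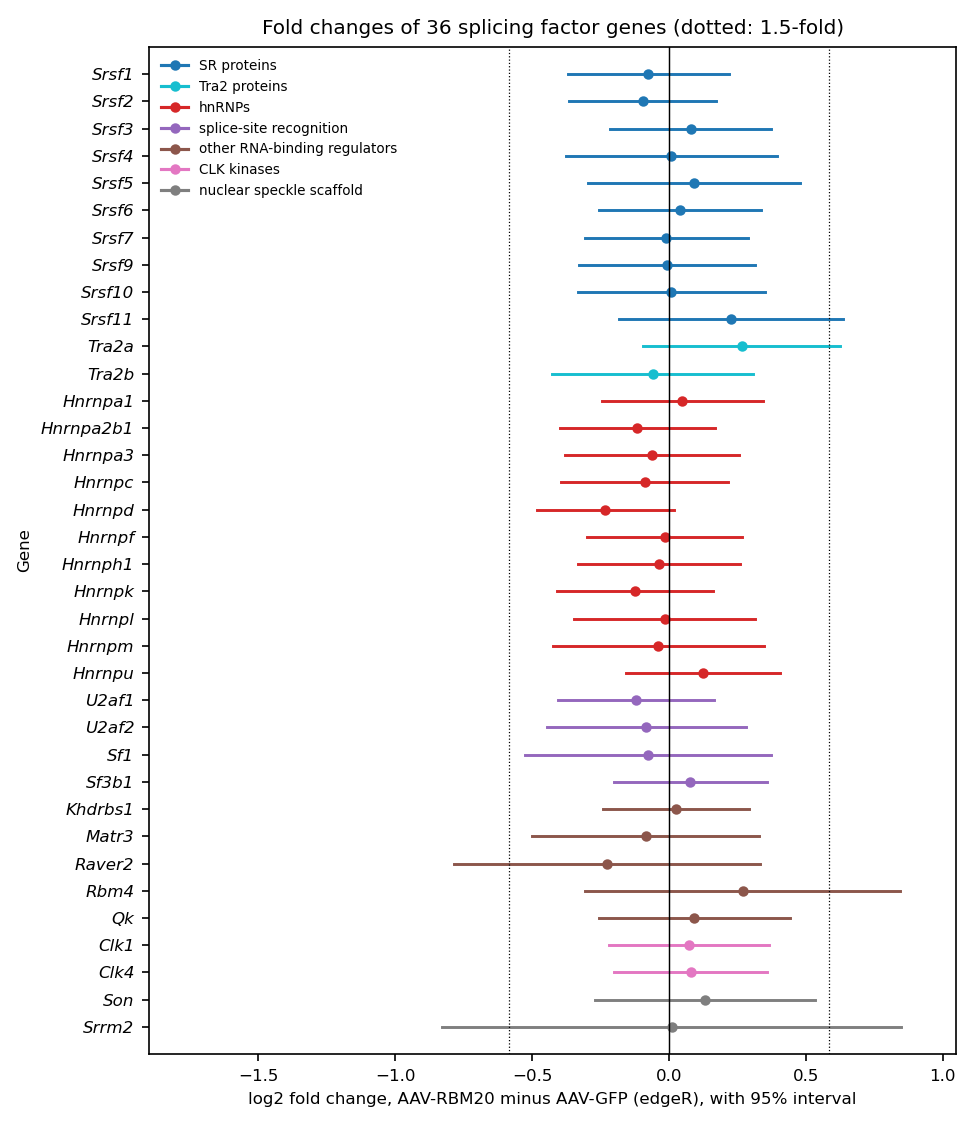
Log2 fold change (AAV-RBM20 minus AAV-GFP, edgeR) of each of the 36 genes with its 95% interval, coloured by role; the solid line is 0 and the dotted lines 1.5-fold. Every interval includes 0, the points lie between -0.23 and 0.27, and the intervals of 5 genes cross a dotted line.

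With the replicate number as a block, which compares same-numbered libraries, 0 of the 36 were called where 0.145% of all genes (25) were. At an unadjusted p of 0.05 the blocked edgeR fit took 1 of the 36 (Hnrnpd), against 18.8% of all genes. With both libraries numbered 3 left out, 0 of the 36 were called against 4% of all genes (690), and 2 (Hnrnpd and Raver2) were at an unadjusted p of 0.05 against 18.5%. Of the 36 genes, 7 were higher in AAV-RBM20 in 3 of 3 same-numbered pairs and 8 were lower in 3 of 3, which is 19.4% and 22.2% beside 22.2% and 23.0% of all genes.

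Among the 10 SR genes, 6 log2 fold changes were above 0 and 4 below, from -0.096 (Srsf2) to 0.23 (Srsf11), and 0 passed the test. The number below 0 was 2 with upper quartile factors and 9 with trends of length and GC removed. Their summed level was 461, 463 and 422 CPM in AAV-GFP and 460, 461 and 458 CPM in AAV-RBM20. The groups were level apart from AAV-GFP replicate 3. Srsf1, the founding SR protein, was at 63.1, 63.2 and 74.1 CPM in AAV-GFP and 60.8, 61.1 and 68.3 CPM in AAV-RBM20. Srsf3, the smallest SR protein, was at 43.6, 47.6 and 53.8 CPM and at 48.5, 52.2 and 52.5 CPM. The values of these genes overlapped between groups, and the log2 fold changes were -0.08 ± 0.13 and 0.08 ± 0.13 (SE).

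Srsf11, which codes for an SR-related protein that interacts with U2AF, had the largest positive value of the SR genes. It was measured at 53.0, 54.4 and 35.3 CPM in AAV-GFP and 56.9, 56.6 and 53.4 CPM in AAV-RBM20. Only AAV-GFP replicate 3 was far from the rest, and the log2 fold change of 0.23 ± 0.18 (SE) became 0.087 ± 0.063 with both libraries numbered 3 left out. Tra2a, a splicing activator related to the SR proteins, was at 25.2, 27.8 and 20.3 CPM in AAV-GFP and 25.8, 30.9 and 31.3 CPM in AAV-RBM20. It was higher in AAV-RBM20 in each same-numbered pair, though the groups overlapped, with a log2 fold change of 0.26 ± 0.16 (SE) and an edgeR adjusted p of 0.658. Without AAV-GFP replicate 3 this was 0.14, and without both libraries numbered 3 it was 0.10. Its paralog Tra2b, at 42.0 ± 4.74 and 40.4 ± 6.52 CPM (SD, n = 3 in each group), had a log2 fold change of -0.06 ± 0.16.

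Of the 11 hnRNP genes, 9 had a log2 fold change below 0 and 2 above it, with a median of -0.039, and 0 passed the test. That split depended on the scaling, since 9 were below 0 with DESeq2 size factors, 5 with upper quartile factors and 11 with trends of length and GC removed. Against the median of all genes 9 of the 11 were lower in each of these fits. Over all alternatives this ran from 6 (without AAV-RBM20 replicate 1) to 10 of the 11 hnRNP genes. Their summed level was 940, 953 and 912 CPM in AAV-GFP and 862, 923 and 945 CPM in AAV-RBM20, which overlap.

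Hnrnpd was the only one of the 36 genes whose groups did not overlap. It encodes AUF1, which binds AU-rich elements and controls mRNA decay as well as splicing. Hnrnpd (GRCm38, chr5:99955935-99978938, minus strand) was measured at 46.5, 46.0 and 46.1 CPM in AAV-GFP and 38.5, 38.8 and 40.7 CPM in AAV-RBM20. All AAV-RBM20 libraries lay below all AAV-GFP libraries, and replicate 3 did not stand apart in either group. Its coefficient of variation in AAV-GFP, 0.558%, was the smallest of the 36. Sampling noise alone at its counts there, 1890 to 2427, would give a larger one. The closeness of these values thus does not measure the spread between muscles. The log2 fold change was -0.23 ± 0.11 (SE; 95% interval -0.48 to 0.018), with an edgeR adjusted p of 0.641, and it was -0.23 ± 0.086 with an edgeR adjusted p of 0.219 under the replicate block. Over all alternatives it stayed between -0.32 and -0.19, and the lowest adjusted p was 0.0624. Non-overlap of this direction was seen in 9.04% of all genes tested and here in 1 of 36, and non-overlap in the other direction in 7.71% of all genes and in 0 of 36, so the share of such genes was below the background in both directions. Exons of Hnrnpd share 385 bases with Gm17092 on the opposite strand.

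Hnrnpk, Hnrnpa2b1 and Hnrnpu had the next smallest p-values in this group. Hnrnpk, a poly(C)-binding protein, was at 106.8, 108 and 124 CPM in AAV-GFP and 99.6, 103 and 108 CPM in AAV-RBM20. Hnrnpa2b1, which binds purine-rich RNA and takes part in RNA transport, was at 208, 214 and 202 CPM and at 175, 203 and 199 CPM. Both sets overlapped, with log2 fold changes of -0.13 ± 0.12 and -0.12 ± 0.12 (SE). Hnrnpu, a nuclear scaffold attachment factor, was at 174, 166 and 160.2 CPM in AAV-GFP and 169, 181 and 195 CPM in AAV-RBM20. Its log2 fold change of 0.12 ± 0.12 turned to -0.0063 once trends of gene length and GC were removed. Hnrnpa1, the classic antagonist of SRSF1, had a log2 fold change of 0.05 ± 0.13 at 59.4 ± 5.30 and 61.4 ± 4.21 CPM (SD, n = 3 in each group). The other 6 hnRNP genes lay between -0.09 (Hnrnpc) and -0.015 (Hnrnpl). Counts of Hnrnpf, Hnrnpa1 and Hnrnpa3 are uncertain to a degree. Of the 100-base stretches of their transcripts 31.5%, 25.9% and 25.6% also occur in other annotated genes, processed copies among them. The same holds for Hnrnpm, which shares 1169 exon bases with March2 on the same strand.

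For splice-site recognition, U2af1, U2af2 and Sf1 had log2 fold changes of -0.12, -0.08 and -0.08 and Sf3b1 one of 0.08, and 0 of the 4 passed the test. U2af1, the subunit that contacts the AG of the 3′ splice site, was at 14.7, 14.5 and 14.5 CPM in AAV-GFP and 13.0, 14.8 and 12.4 CPM in AAV-RBM20. The AAV-GFP values lay inside the AAV-RBM20 range. At their counts, 598 to 762, sampling noise alone would give a larger spread than these AAV-GFP values had. Of the 100-base stretches of U2af1 transcripts, 16.3% also occur in other annotated genes. U2af2, which binds the polypyrimidine tract, was at 31.9 ± 3.40 and 30.1 ± 4.85 CPM (SD, n = 3 in each group). Sf1, the branch point binding protein, was at 76.1, 83.0 and 56.7 CPM in AAV-GFP and 71.3, 78.9 and 54.3 CPM in AAV-RBM20. In both groups replicate 3 was the low one. Sf3b1, the U2 snRNP subunit that holds the branch point, was at 116 ± 4.75 and 122 ± 9.36 CPM (SD, n = 3 in each group).

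Among the kinases and the other RNA-binding regulators 0 of 7 genes passed the test. Clk1 and Clk4, which phosphorylate SR proteins, were at 61.4 ± 3.42 and 39.0 ± 1.87 CPM in AAV-GFP and at 64.6 ± 6.19 and 41.2 ± 3.53 CPM in AAV-RBM20 (SD, n = 3 in each group), log2 fold changes of 0.07 and 0.08. Khdrbs1 (Sam68), a signal-regulated splicing factor, had the smallest coefficient of variation in AAV-RBM20, 1.08%, and a log2 fold change of 0.03 ± 0.11. At its counts in AAV-RBM20, 1356 to 1828, sampling noise alone would give a larger coefficient. Qk was at 523, 496 and 563.9 CPM in AAV-GFP and 544, 492 and 652 CPM in AAV-RBM20. The log2 fold change of Qk was 0.09 ± 0.15, and -0.018 without AAV-RBM20 replicate 3, the highest library. Matr3, a nuclear matrix protein and partner of PTBP1, was at 31.9, 32.9 and 45.8 CPM and at 30.2, 34.4 and 39.7 CPM, with replicate 3 highest in both groups. Its log2 fold change was -0.09 ± 0.18. The Matr3 counts are uncertain to a degree, since it shares 1754 exon bases with Gm28285 on the same strand.

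Raver2, a ribonucleoprotein that works with PTBP1, was singled out after its values were seen. It was at 16.3, 18.9 and 9.42 CPM in AAV-GFP and 13.7, 11.5 and 12.8 CPM in AAV-RBM20. The first and second AAV-GFP libraries were above all AAV-RBM20 libraries and the third below them all. The log2 fold change was -0.23 ± 0.24 (SE) over all libraries and -0.47 ± 0.12 with both libraries numbered 3 left out, where the edgeR adjusted p was 0.0520, just outside the threshold. With both libraries numbered 2 left out it was 0.02. Rbm4, a regulator of muscle exons, was the lowest of the 36 genes at 7.90, 8.86 and 4.58 CPM in AAV-GFP and 8.84, 9.50 and 7.33 CPM in AAV-RBM20. It was higher in AAV-RBM20 in each pair, but the groups overlapped, with a log2 fold change of 0.27 ± 0.25 and an edgeR adjusted p of 0.754. Without AAV-GFP replicate 3 the value was 0.027. The Rbm4 counts are uncertain, since 55.0% of the 100-base stretches of its transcripts occur in other genes and it shares 2990 exon bases with Gm21992 on the same strand.

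Srrm2 varied most between libraries of the 36 genes. This speckle scaffold was at 492, 472 and 194 CPM in AAV-GFP and 448, 456 and 261 CPM in AAV-RBM20, so replicate 3 held less than the others in each group. The coefficient of variation was 43.3% and 28.3%, the highest of the 36 genes in either group, and the log2 fold change was 0.0098 ± 0.36 (SE). With both libraries numbered 3 left out it was -0.086 ± 0.065. Son was at 386, 383 and 272 CPM in AAV-GFP and 394, 407 and 339 CPM in AAV-RBM20. Replicate 3 was again the low library in each group, with a log2 fold change of 0.13 ± 0.17. Across the 36 genes the median coefficient of variation was 10.3% in AAV-GFP and 7.91% in AAV-RBM20, and it was the larger in AAV-GFP for 24 genes. That count was not made over all genes. Replicate 3 lay further from the other replicates in AAV-GFP than in AAV-RBM20 for all genes too. The median absolute log2 difference was 0.35 against 0.22 for all genes and 0.23 against 0.17 for the 36.

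**Figure D3:**
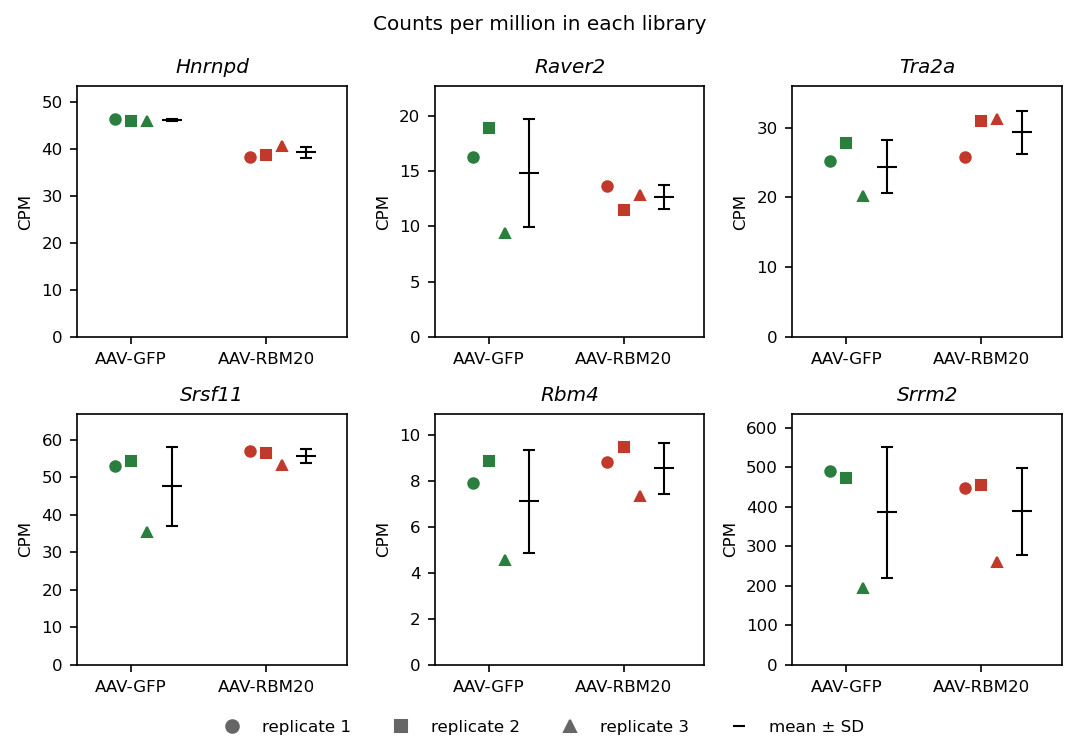
CPM in each library for Hnrnpd, Raver2, Tra2a, Srsf11, Rbm4 and Srrm2, with the mean ± SD of the 3 libraries beside the points of each group; symbols give the replicate number and each axis starts at 0. The Hnrnpd groups do not overlap (46.0 to 46.5 against 38.5 to 40.7 CPM). For Raver2, Tra2a, Srsf11, Rbm4 and Srrm2 the AAV-GFP triangle, replicate 3, lies below the other AAV-GFP points.

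Much of the spread of these genes lay between the libraries numbered 3 and the others, and it went in part with the GC content of the transcripts. The level in library 3 was set against the mean of libraries 1 and 2 of its group on a log2(CPM + 0.5) scale. The difference had the same sign in both groups for 28 of the 36 genes (77.8%), beside 70.7% of all genes. It was at least 0.2 lower in both groups for 7 genes (19.4%, all genes 17.7%), namely Srrm2, Son, Sf1, Rbm4, Srsf4, Hnrnpl and U2af2. The largest was Srrm2 at -1.31 in AAV-GFP and -0.79 in AAV-RBM20, followed in AAV-GFP among these by Rbm4 at -0.80 and -0.30. It was at least 0.2 higher in both groups for 3 genes (8.33%, all genes 18.2%), which were Matr3 at 0.49 and 0.30, Srsf10 at 0.29 and 0.28 and Tra2b at 0.23 and 0.32.

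Genes with AT-rich transcripts tended to be higher and those with GC-rich transcripts lower in library 3. Across the 36 genes, which are not independent replicates and share the same libraries, Pearson's r of the difference with the GC percentage of the transcripts was -0.61 (Spearman's rho -0.63) in AAV-GFP and -0.83 (rho -0.84) in AAV-RBM20. Over 17196 genes with an annotated GC content r was -0.097 and -0.26. Matr3 and Tra2b were among the AT-rich genes, and Sf1 at 54.9% and U2af2 at 55.5% were the most GC-rich. Some genes went the other way, such as Srsf5 at 42.9% GC, with -0.53 in AAV-GFP and -0.13 in AAV-RBM20. Srrm2, at 52.0% GC, lay below the rest in both groups. With gene length the r of the 36 genes was -0.063 and 0.11. The causes of this pattern were not tested.

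**Figure D4:**
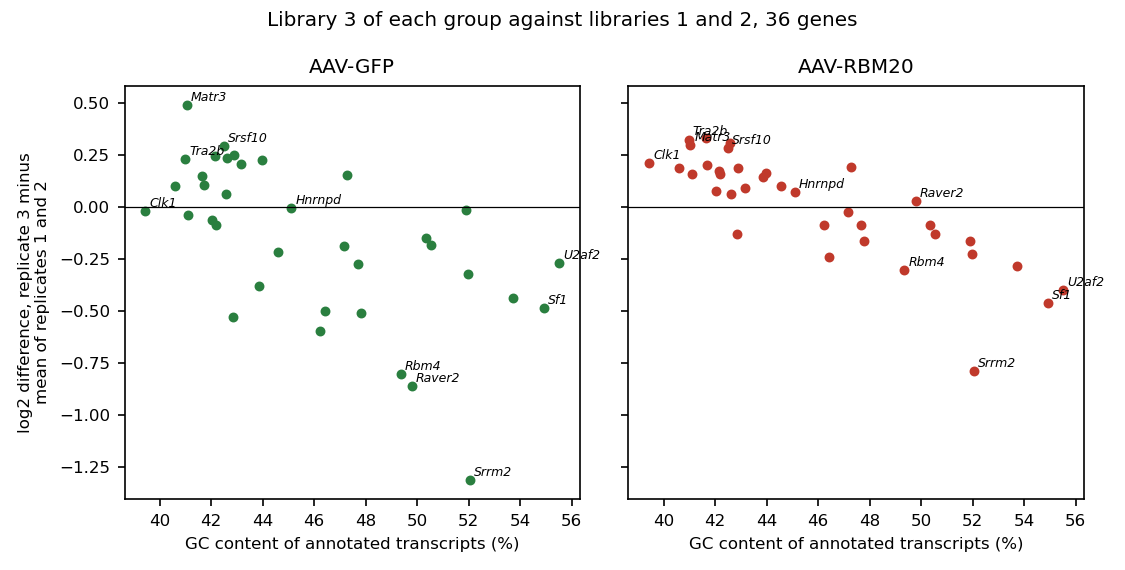
Log2 difference of library 3 from the mean of libraries 1 and 2 of its group (vertical axis) against the GC percentage of the annotated transcripts (horizontal axis) for the 36 genes, AAV-GFP on the left and AAV-RBM20 on the right; the line marks no difference. The points descend from left to right in both groups (r -0.61 and -0.83), with Srrm2 lowest at -1.31 and -0.79.

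The rest of the splicing machinery was described from a list of 110 further genes, of which 105 were tested. At an edgeR adjusted p of 0.05 0 of these passed, at an unadjusted p of 0.05 3 did (2.86%, beside 7.9% of all genes), and with the replicate block 0 and 16 did (15.2%, beside 18.8%). All 3 were lower in AAV-RBM20. Hnrnpab, an hnRNP related to Hnrnpd, was at 56.8, 58.3 and 78.0 CPM in AAV-GFP and 49.6, 46.1 and 48.4 CPM in AAV-RBM20, which do not overlap, a log2 fold change of -0.42 ± 0.15 (SE). Upf2, a factor of nonsense-mediated decay, was at 59.9, 56.7 and 76.5 CPM and at 42.5, 42.5 and 58.5 CPM. Its groups overlapped only through AAV-RBM20 replicate 3, and the log2 fold change was -0.43 ± 0.18. Zrsr1, related to U2af1, had a log2 fold change of -0.33 ± 0.14. The next by p were Snrpc at -0.34, Smg5 at -0.31 and Snrpf at -0.54, and the edgeR adjusted p of these 6 genes was 0.618 to 0.641. Without AAV-GFP replicate 3 the values were smaller for 5 of them, at -0.26 for Hnrnpab, -0.29 for Upf2, -0.21 for Zrsr1, -0.22 for Snrpc and -0.29 for Snrpf. With both libraries numbered 3 left out, Upf2 (-0.45 ± 0.065, adjusted p 0.00539), Clk3 (-0.36 ± 0.065, adjusted p 0.0135) and Smg5 (-0.27 ± 0.063, adjusted p 0.0413) passed the edgeR test, where 4% of all genes did. Clk3 is a kinase of SR proteins like Clk1 and Clk4, and it was named after its values were seen.

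The Sm proteins form the ring of the spliceosomal snRNPs. By complex, the U1 and Sm core proteins had 10 of 11 below 0, where 48.7% of all genes were. Their median log2 fold change was -0.22. Over all alternatives 8 to 11 of the 11 were below 0, and the median was -0.13 without AAV-GFP replicate 3. For the U2 proteins 11 of 15 were below 0 (median -0.13), for exon junction and nonsense-mediated decay 13 of 15 (-0.052), and for the tri-snRNP and Prp19 complexes 10 of 16 (-0.057). The SR-related proteins and SR kinases (11 of 19, -0.011) and the other hnRNP family members (12 of 24, -0.0021) were close to evenly split, and of the 5 paraspeckle genes 1 was below 0. Over the alternatives the counts below 0 ran from 9 to 14 for the U2 proteins, 8 to 14 for the tri-snRNP and Prp19 complexes and 6 to 14 for exon junction and decay, the last with 6 and a median of 0.026 without AAV-RBM20 replicate 3. They ran from 8 to 14 of 19 for the SR-related list and from 11 to 19 of 24 for the other hnRNP family. The 14 and the 19 were reached with trends of length and GC removed. For the paraspeckle genes they ran from 1 to 3 of 5, with 3 and a median of -0.026 without AAV-GFP replicate 3. Within these complexes 0 genes were called in the edgeR fit, with or without the block. At an unadjusted p of 0.05 the blocked edgeR fit took 5 of the 11 U1 and Sm core genes (45.5%), beside 18.8% of all genes. It took 0% to 20.8% of the other lists, and the edgeR fit without the block took 0 of the 11.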

How the data were processed

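RNA was extracted from TA muscle, and libraries were made with a stranded, ribosomal RNA-depleting kit. Per the labels and the study's methods, the authors aligned reads with HISAT2 against mm10, and HTSeq gave counts per gene. The versions, the annotation release and the strand setting are not given in the sources used here. Counts of genes whose exons overlap others are thus uncertain, as for Srsf4, with 1532 exon bases opposite Gm12992. The counts deposited by the authors are whole numbers per Ensembl gene without normalisation, and a table of size-factor-normalised values was not used. Names, lengths and GC content came from GENCODE M21, and 260 of 55401 identifiers had no symbol.

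Samples were grouped from the labels. The labels do not say that the samples are separate animals, so p-values measure the spread between these libraries. Source data for the study's protein blots list some GFP and RBM20 muscles from opposite legs of 1 mouse, but do not tie the RNA libraries to animals, so legs of 1 mouse may be among them. Groups were compared with edgeR 4.0.16 (glmQLFit with robust estimation, glmQLFTest, filterByExpr, TMM) in R 4.3.3, with Benjamini-Hochberg adjustment over 17222 genes and a threshold of 0.05. The script was tested on simulated counts. Alternatives were DESeq2 1.42.0, limma-voom 3.58.1, other scalings and filters, removal of length and GC trends, the replicate block and left-out libraries.

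Replicate numbers come from the titles. The column names number the AAV-RBM20 libraries onward from the AAV-GFP ones. Deviations from the group means correlated at 0.418, 0.201 and 0.484 between same-numbered libraries and at -0.422 to 0.216 between others. Libraries of the same number were treated as pairs because each same-numbered correlation was above 0.1. That bound does not establish the pairs. AAV-GFP replicate 2 correlated at 0.216 with AAV-RBM20 replicate 1 and at 0.201 with AAV-RBM20 replicate 2. The value of 0.484 was between the libraries numbered 3, which stood apart in both groups. The replicate block and the counts over same-numbered pairs thus rest on the title numbers. Taken over genes as a whole, replicates of a group differed by more than sampling noise.

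The 36 genes, the other splicing genes and the marker lists were chosen with earlier results of these data known. Values in every library were given for genes whose groups did not overlap, the 8 smallest p-values, the highest and lowest gene per length and, chosen later, others as examples. The coding run of 1 gene is not reported here.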

Additional observations from a re-analysis of the deposited data

How the results depend on the processing

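In all 20 alternatives 0 of the 36 genes were called, and the lowest adjusted p of any of them was 0.0520, for Raver2 with both libraries numbered 3 left out. The count over all genes moved from 0 to 8 with no filter on low counts, 25 with the replicate block, 72 with DESeq2, 503 with DESeq2 and the replicate block, 192 with the replicate block and length and GC trends removed, and 690 with both libraries numbered 3 left out. The replicate block, which rests on pairing by title number, changed the call of Rbm20 in edgeR, and that of Upf2 in DESeq2 (adjusted p 0.0168) and in edgeR with the trends removed (adjusted p 0.0478), and of no other of the 18 genes followed over the alternatives.

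Some log2 fold changes near 0 changed sign. Hnrnpu was -0.0063 without length and GC trends and -0.0064 when blocked too. Qk was -0.0634 and -0.06 in these fits, and with single libraries left out it ran from -0.0176 to 0.1763. Raver2 was 0.0246 with both libraries numbered 2 left out. Srrm2 was -0.0078 with DESeq2 size factors and with DESeq2, -0.0452 with the trends removed, -0.0004 when blocked too, -0.0855 with both libraries numbered 3 left out, and -0.3133 to 0.2364 with single libraries left out. The causes were not tested. The median of the 36 genes relative to that of all genes was -0.0185 as reported and -0.0185 with DESeq2 size factors. It was -0.0178 with upper quartile factors and -0.0215 with the trends removed. Size factors shift all genes nearly alike, so they could hardly move this difference. Over all alternatives it ran from -0.0637 (DESeq2 with the replicate block) to 0.0265 (without AAV-RBM20 replicate 1). Of 359 values of 18 named genes, 335 kept direction and side of the threshold. With 3 libraries a group, of which those numbered 3 stood apart, a 1.5-fold difference lay inside the 95% interval for 5 of the 36 genes. Counts at gene level carry no information on exon choice within these genes.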
